A study of Mus musculus with 12 samples.

Results

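Expression of 8 genes that mark the formative and primed states of pluripotency was examined in mouse pluripotent cells sorted by mitochondrial membrane potential. The members were Otx2, Fgf5, Pou3f1, Sox3, Zic2, Etv4, Cldn6 and Foxd3, taken by gene symbol from 25206 probe sets. Pou3f1 and Oct6, listed as separate names, are 1 gene, so 9 names gave 8 genes, each with 1 probe set. The cells were induced pluripotent stem cells (iPSC), made by reprogramming somatic cells, and embryonic stem cells (ESC), all female and of C57BL/6 background. Both were kept undifferentiated and without feeders in 2iLIF medium on gelatin, stained with tetramethylrhodamine methyl ester (TMRM), a dye that mitochondria take up according to their membrane potential, and sorted by flow cytometry. The 4 groups were iPSC high, iPSC low, ESC high and ESC low, with 3 Affymetrix arrays each, numbered 2, 3 and 4. No genetic change was named for any group. The labels do not say whether arrays of a group came from separate cultures, lines or sorts, so each p-value describes how these samples vary among themselves, and that spread may be technical.

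Naive pluripotent cells resemble the epiblast before implantation, primed cells resemble it after implantation, and formative cells lie in between. The 2i inhibitors hold cells in the naive state by blocking MEK, a kinase of the FGF and ERK pathway, and GSK3, which restrains Wnt signalling. On release from them Otx2 and Pou3f1 are switched on early, Fgf5 marks the formative and early primed cells, and naive factors decline. Etv4 is a transcription factor of the ETS family that FGF signalling induces.

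The values were log2 expression levels made with RMA, a method that corrects background, equalizes the arrays and summarises probes. Array medians lay between 3.51 and 3.61, and correlations across probe sets were 0.991 to 0.994 within groups and 0.986 to 0.994 between groups. The labelled identity was checked on 5 core pluripotency genes. Nanog lay between 10.43 and 10.66 over the 12 arrays, Sox2 between 8.63 and 9.10, Sall4 between 8.92 and 9.44, Lin28a between 6.55 and 6.97 and Pou5f1 between 5.90 and 6.26. Between fractions or cell types 0 of the 5 passed (limma). At an unadjusted p under 0.05 (limma) were 3 of 5 between the cell types averaged over the fractions, against 14.7% of all probe sets. Between the fractions averaged over the cell types it was 0 of 5, against 15.6%. No detection calls come with the values, so a low level cannot be told from an absent one. Levels of different probe sets were not set against each other, except for Fgf5 against the lower quartiles of its arrays.

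Promoter windows, from 250 bases before to 50 after a transcription start, were found in the RefSeq sequences of GRCm38.p6 for 4 of the 8 members (7 windows). They were searched on both strands for GGATTA, the letters that OTX proteins bind, and CCGGAA, the core that ETS proteins bind, because Otx2 and Etv4 had the widest ranges among the members. Neither string contains the other. GGATTA was in 1 of 4 Otx2 windows, at a start inside the gene, and in 7.06% of all 32851 windows. CCGGAA was in the Fgf5 window, here as its reverse complement, and in 14.9% of all windows. The windows of Cldn6 and Foxd3 held neither string. A match is a description of the letters only. The 2 windows with a match are shown, with the match in capitals.
Otx2, chr14:48665060-48665359, minus strand: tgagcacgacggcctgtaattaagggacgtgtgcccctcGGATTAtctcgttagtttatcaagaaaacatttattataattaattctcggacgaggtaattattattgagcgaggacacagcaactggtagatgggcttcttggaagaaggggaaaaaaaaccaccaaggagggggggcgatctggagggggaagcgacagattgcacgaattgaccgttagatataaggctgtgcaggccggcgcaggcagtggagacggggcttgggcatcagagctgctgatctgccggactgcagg
Fgf5, chr5:98253934-98254233, plus strand: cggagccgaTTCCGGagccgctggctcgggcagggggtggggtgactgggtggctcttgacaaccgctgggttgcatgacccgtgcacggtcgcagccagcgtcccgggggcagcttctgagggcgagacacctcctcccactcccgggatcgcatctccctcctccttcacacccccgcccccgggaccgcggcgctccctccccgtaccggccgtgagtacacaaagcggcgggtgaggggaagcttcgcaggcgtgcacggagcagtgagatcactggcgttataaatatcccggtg

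No member differed between the high and low fraction past the threshold in either cell type. The threshold was an adjusted p under 0.05 in limma, over all probe sets. In iPSC 0 of 8 members passed, against 0.547% of all probe sets, and in ESC 0 of 8 passed, against 0.357%. Averaged over both cell types 0 of 8 passed, against 2.5% of all probe sets. At an unadjusted p under 0.05 (limma, without a block) the counts of members were also 0, 0 and 0. The shares of all probe sets were 12.7% in iPSC, 8.29% in ESC and 15.6% in the average. With the replicate number as a block, Etv4 (unadjusted p = 0.0182, limma) and Cldn6 (0.0370) were under it in iPSC and Fgf5 (0.0292) in ESC. In the average these were Fgf5 (0.0216) and Foxd3 (0.0385). None passed after adjustment, and the share of all probe sets under it with the block was not counted. The median log2 difference of the members, averaged over both cell types, was 0.01, and that of all probe sets was 0.00. In bulk samples like these, fewer cells of a type and less RNA per cell cannot be told apart.

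Among the transcription factors, Otx2, a homeobox protein that drives exit from the naive state, had levels of 4.06, 3.57 and 4.93 in iPSC high and 3.87, 3.87 and 4.49 in iPSC low (numbers 2, 3 and 4). It had 3.79, 4.67 and 5.61 in ESC high and 3.53, 4.38 and 6.31 in ESC low. The fractions overlapped in both cell types, and the arrays numbered 4 were the highest of their group in all 4 groups. The log2 difference of Otx2, high minus low, was 0.11 ± 0.61 (SE; 95% interval -1.22 to 1.44) in iPSC and -0.05 ± 0.61 (-1.38 to 1.28) in ESC, so that in this fit a change of more than 2-fold either way lay within the intervals. With the replicate number as a block they were narrower, -0.36 to 0.59 in iPSC and -0.53 to 0.42 in ESC, and did not reach 2-fold either way.

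**Figure D1:**
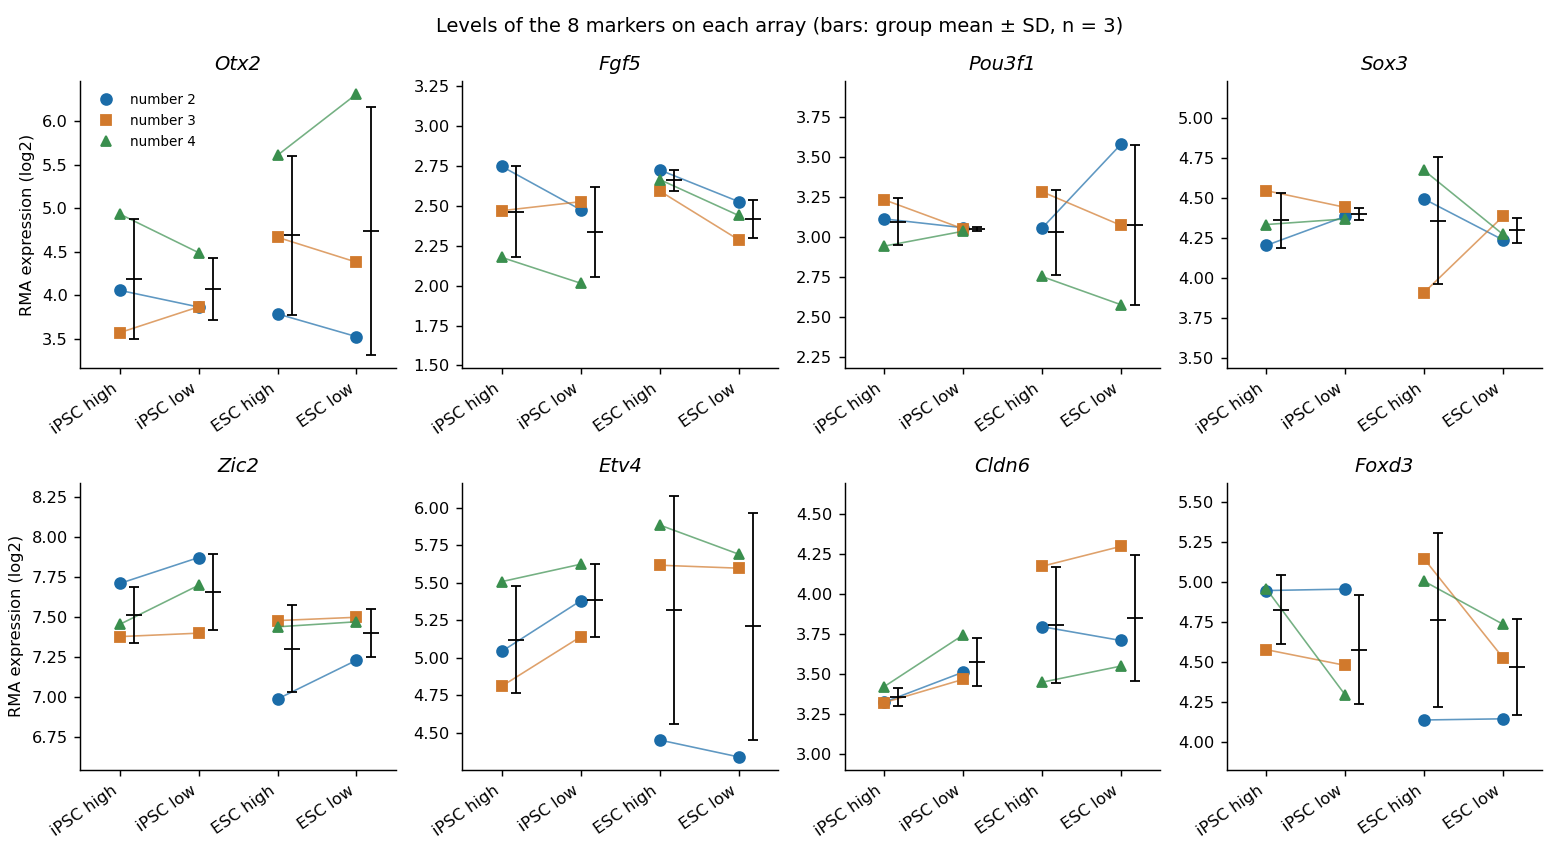
Log2 RMA level of each marker on each of the 12 arrays, with 1 panel per gene and its own vertical scale. Lines join the high and low array of equal number, and bars give the group mean and SD (n = 3). For Etv4 in ESC the joined arrays lie close together while number 2 lies below the others, and for Otx2 the joined arrays lie farther apart, with number 4 the highest in every group.

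Etv4 had levels of 5.04, 4.81 and 5.51 in iPSC high and 5.38, 5.14 and 5.62 in iPSC low. It had 4.45, 5.62 and 5.88 in ESC high and 4.34, 5.60 and 5.69 in ESC low. High was below low in 3 of 3 numbered pairs of iPSC and above low in 3 of 3 of ESC, but the groups overlapped in both cell types. The difference was -0.26 ± 0.38 in iPSC (95% interval -1.10 to 0.57) and 0.11 ± 0.38 in ESC (-0.73 to 0.94). With the replicate number as a block the intervals were narrower, -0.46 to -0.06 in iPSC and -0.10 to 0.31 in ESC. The iPSC difference then had an unadjusted p of 0.0182 and an adjusted p of 0.210 (limma), so it did not pass. The difference between these effects, iPSC minus ESC, was -0.37 ± 0.54 and did not pass the test (adjusted p = 0.9998, limma). With the replicate number as a block it remained -0.37, at an unadjusted p of 0.0181 and an adjusted p of 0.793 (limma).

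Fgf5, the secreted growth factor of the formative and early primed epiblast, had levels of 2.75, 2.47 and 2.18 in iPSC high and 2.48, 2.53 and 2.02 in iPSC low. Its levels were 2.73, 2.59 and 2.67 in ESC high and 2.53, 2.29 and 2.44 in ESC low. The ESC fractions did not overlap, as was the case for 13.1% of all probe sets, and the difference there was 0.24 ± 0.16 (adjusted p = 0.737, limma). In iPSC it was 0.13 ± 0.16, with high above low in 2 of 3 pairs. Both iPSC arrays numbered 4 had Fgf5 below their lower quartile (2.20 in high and 2.08 in low), where a low level cannot be told from an absent one. With the replicate block the ESC difference had an unadjusted p of 0.0292 and an adjusted p of 0.365 (limma), so it did not pass either.

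Cldn6, a tight-junction protein of epithelia, had levels of 3.32, 3.32 and 3.42 in iPSC high and 3.51, 3.47 and 3.74 in iPSC low. It had 3.80, 4.17 and 3.45 in ESC high and 3.71, 4.30 and 3.55 in ESC low. The iPSC fractions did not overlap, as was the case for 19.3% of all probe sets, and high was below low by a difference of -0.22 ± 0.20 (adjusted p = 0.704, limma). With the replicate block that adjusted p was 0.277 (limma). In ESC the difference was -0.05 ± 0.20, and the fractions overlapped.

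The other 4 transcription factors had overlapping fractions in both cell types. Foxd3, a forkhead factor of pluripotent and neural crest cells, averaged 4.83 ± 0.22 in iPSC high and 4.58 ± 0.34 in iPSC low, and 4.76 ± 0.55 in ESC high and 4.47 ± 0.30 in ESC low (SD, n = 3 each). Its difference averaged over both cell types, 0.27 ± 0.18, was the largest in size among the members (adjusted p = 0.519, limma). Zic2, a zinc-finger factor that binds enhancers in stem cells, averaged 7.51 ± 0.17 in iPSC high and 7.66 ± 0.24 in iPSC low, and 7.30 ± 0.27 in ESC high and 7.40 ± 0.15 in ESC low. High lay below low in 3 of 3 pairs of each cell type, by -0.12 ± 0.11 on average (adjusted p = 0.667, limma). Pou3f1, the POU factor of the formative state, averaged 3.10 ± 0.15 in iPSC high and 3.05 ± 0.01 in iPSC low, and 3.03 ± 0.27 in ESC high and 3.08 ± 0.50 in ESC low. Sox3, a relative of Sox2, averaged 4.36 ± 0.17 in iPSC high and 4.40 ± 0.04 in iPSC low, and 4.36 ± 0.40 in ESC high and 4.30 ± 0.08 in ESC low. For both genes the average difference was under 0.02 in size, with 95% intervals of -0.31 to 0.32 for Pou3f1 and -0.24 to 0.26 for Sox3.

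In the test of iPSC effect minus ESC effect, 0 of 8 members and 0% of all probe sets passed in limma, with 0 members and 4.36% of all probe sets at an unadjusted p under 0.05. With the replicate number as a block within each cell type, 0 of 8 members passed in iPSC (0.936% of all probe sets), in ESC (0.702%), in the average (3.73%) and in the test of the difference (0.00397%).

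Between the cell types 0 of 8 members passed as well, against 2.87% of all probe sets averaged over the fractions, 0.186% in the high and 0.397% in the low fraction. At an unadjusted p under 0.05, 1 member was below ESC levels in iPSC in the average, 1 in the high and 0 in the low fraction, against 14.7%, 9.52% and 11.2% of all probe sets in either direction (limma). That gene was Cldn6, at -0.37 ± 0.14 in the average (95% interval -0.67 to -0.06; unadjusted p = 0.0218, adjusted p = 0.227, limma). This fit counts the high and low array of equal number as separate observations. With these averaged, which leaves 3 values per cell type, the adjusted p of Cldn6 was 0.477 (limma). Its high fractions did not overlap between iPSC and ESC, as held for 15.7% of all probe sets. Zic2 stood 0.24 ± 0.11 higher in iPSC (95% interval -0.01 to 0.48; adjusted p = 0.361, or 0.584 with equal numbers averaged, limma). Otx2 was at -0.58 ± 0.43 (-1.52 to 0.36; adjusted p = 0.610, or 0.752 with equal numbers averaged, limma), a difference with the same sign in both fractions. The other members differed by between -0.14 for Fgf5 and 0.09 for Foxd3, with Sox3 at 0.05, Pou3f1 at 0.02 and Etv4 at -0.01.

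**Figure D2:**
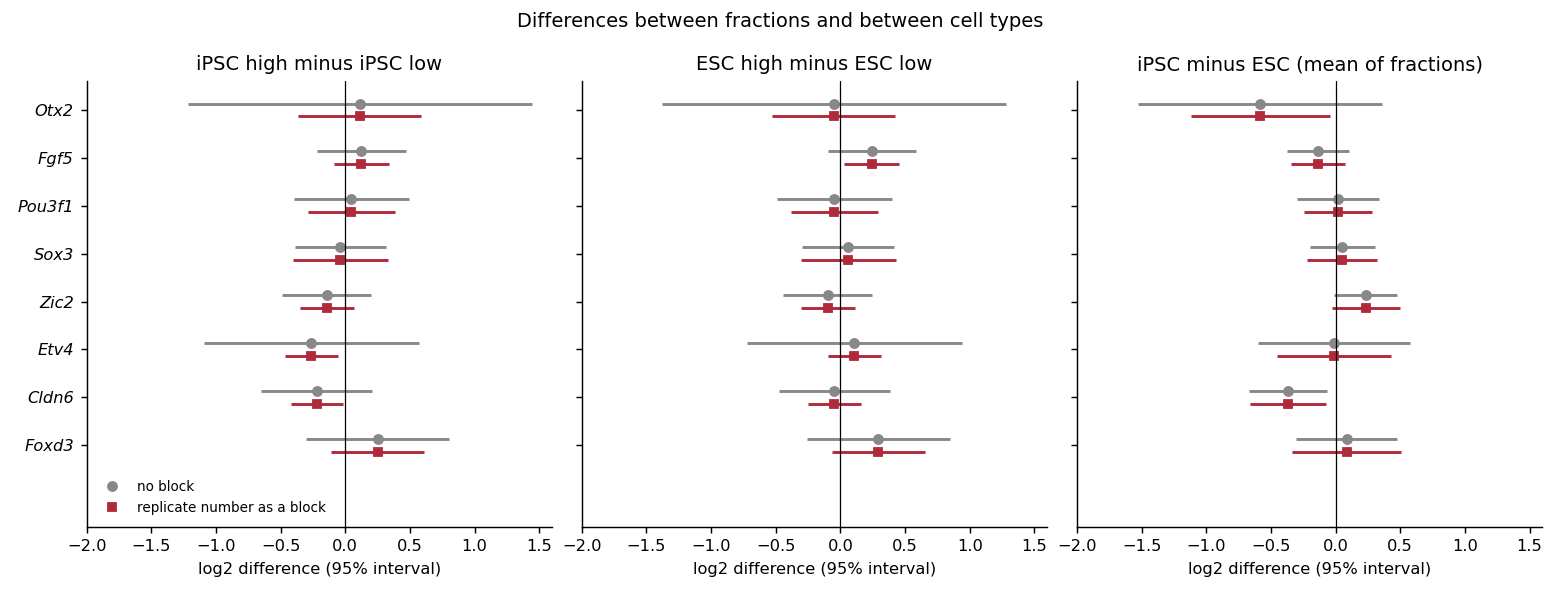
Log2 difference of each marker with its 95% interval from limma, for iPSC high minus low, ESC high minus low, and the average of iPSC minus ESC over the fractions. Circles are the fit without a block and squares the fit with the replicate number as a block. For iPSC minus ESC that block was shared by both cell types. Otx2 and Etv4 have the widest intervals without the block, and no marker passed the threshold in either fit.

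Several members varied widely among the arrays of a group, and much of that spread followed the array numbers. A pair is the high and the low array of equal number in 1 cell type. Within groups, the residual SD of Otx2 was 0.93, above that of 99.97% of all probe sets. It was 0.58 for Etv4, above 99.6%, and 0.37 for Foxd3, above 96.6%, so 3 of 8 members lay above the 95th percentile. The other members had residual SDs between 0.21 and 0.29. After removing the numbered pairs, the residual SD was 0.08 for Etv4, 0.07 for Cldn6 and 0.34 for Otx2, which was still above that of 96.8% of all probe sets, while that of Sox3 was 0.25, against 0.22 before.

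**Figure D3:**
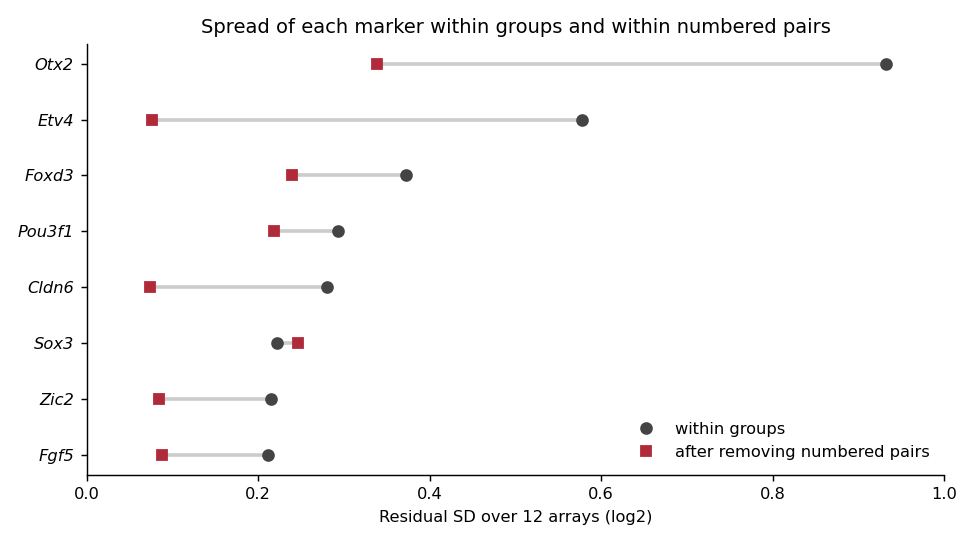
Residual SD (log2) of each marker over the 12 arrays, within the 4 groups (circles) and after also removing the numbered pairs within each cell type (squares). Otx2 had the largest value within groups, 0.93, and the values of all markers except Sox3 were smaller after removing the pairs.

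The mean of each pair shows how the members varied. For Otx2 the pair means were 3.96, 3.72 and 4.71 in iPSC and 3.66, 4.52 and 5.96 in ESC (numbers 2, 3 and 4), a range of 0.99 in iPSC and 2.30 in ESC. For Etv4 they were 5.21, 4.98 and 5.57 in iPSC and 4.40, 5.61 and 5.79 in ESC. Both genes were highest in number 4 of each cell type and lowest in number 3 of iPSC and number 2 of ESC. Cldn6 had pair means of 3.42, 3.39 and 3.58 in iPSC and 3.75, 4.24 and 3.50 in ESC, where number 3 was the highest. Foxd3 pair means in ESC were 4.14, 4.84 and 4.87, and those of Zic2 were 7.11, 7.49 and 7.46, again lowest in number 2. Pou3f1 ran the other way there, with 3.32, 3.18 and 2.66.

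The differences between pairs were tested with limma's F test, a test chosen after these values were seen, with the high and low array of a pair as its 2 observations. In iPSC 0 of 8 members passed, against 0.0119% of all probe sets, with 4 members and 9.78% of all probe sets at an unadjusted p under 0.05. In ESC 3 of 8 passed, against 1.2% of all probe sets: Etv4 (adjusted p = 0.0032, limma), Otx2 (adjusted p = 0.0168, limma) and Cldn6 (adjusted p = 0.0389, limma). At an unadjusted p under 0.05 there were 6 members in ESC, against 14.3% of all probe sets, and 7 over both cell types, against 13.9%. Whether ESC and iPSC differ in this was not tested. In the test over both cell types 2 of 8 passed, against 0.52%: Etv4 (adjusted p = 0.0103, limma) and Otx2 (adjusted p = 0.0377, limma), with Cldn6 at 0.0910 and the other 5 members between 0.202 and 0.745.

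These calls were lost when single arrays were left out. The counts over all probe sets fell as well, to 5 to 197 in ESC, against 302 with all arrays, also where the array left out was an iPSC array, and to 8 to 31 over both cell types, against 131. In ESC, Etv4 no longer passed without ESC high number 2 (adjusted p = 0.0858, limma) or ESC low number 2 (0.0699). Otx2 no longer passed without ESC high number 2 (0.100), ESC low number 2 (0.126) or ESC low number 4 (0.0684). Cldn6 no longer passed when any 1 of the 12 arrays was left out (0.0669 to 0.216). Over both cell types Otx2 was lost when any 1 of the 12 arrays was left out (0.0672 to 0.185), and Etv4 without ESC high number 2 (0.137), ESC high number 4 (0.0672), ESC low number 2 (0.116) or ESC low number 4 (0.0658). Without any of these 4 arrays 0 members passed over both cell types, and without either array of number 2 in ESC 0 members passed in ESC. The labels do not say whether a number marks a culture, a sort or an array run, and these cannot be told apart.

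The levels of Otx2 were set against those of the other members, and Etv4 and Pou3f1 had the strongest relations with it. Over the 12 arrays, in which both arrays of a pair share their number, Pearson's r was 0.76 (Spearman's rho 0.91) for Otx2 with Etv4 and -0.81 (rho -0.69) for Otx2 with Pou3f1. Within iPSC and ESC the r was 0.78 and 0.81 for Etv4, and -0.84 and -0.87 for Pou3f1. Over the 6 pair means Otx2 and Etv4 had r = 0.82 (exact permutation p = 0.0417, two-sided) and rho = 0.94 (exact permutation p = 0.0167). Adjusted over the 28 relations among members these were 0.292 and 0.467, so neither passed. Without the 2 pairs farthest from the median of Otx2, r was 0.97. For Otx2 and Pou3f1 the pair means gave r = -0.91 (exact permutation p = 0.0208, adjusted 0.292) and rho = -0.83 (exact permutation p = 0.0583, adjusted 0.734). Without the same 2 pairs, numbers 2 and 4 of ESC, that r was -0.42 over the few pair means left. The r of -0.84 within iPSC uses neither of those pairs, but Pou3f1 varied little there, between 2.94 and 3.23. The range of its pair means in iPSC was 0.15, above that of 37.9% of all probe sets.

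**Figure D4:**
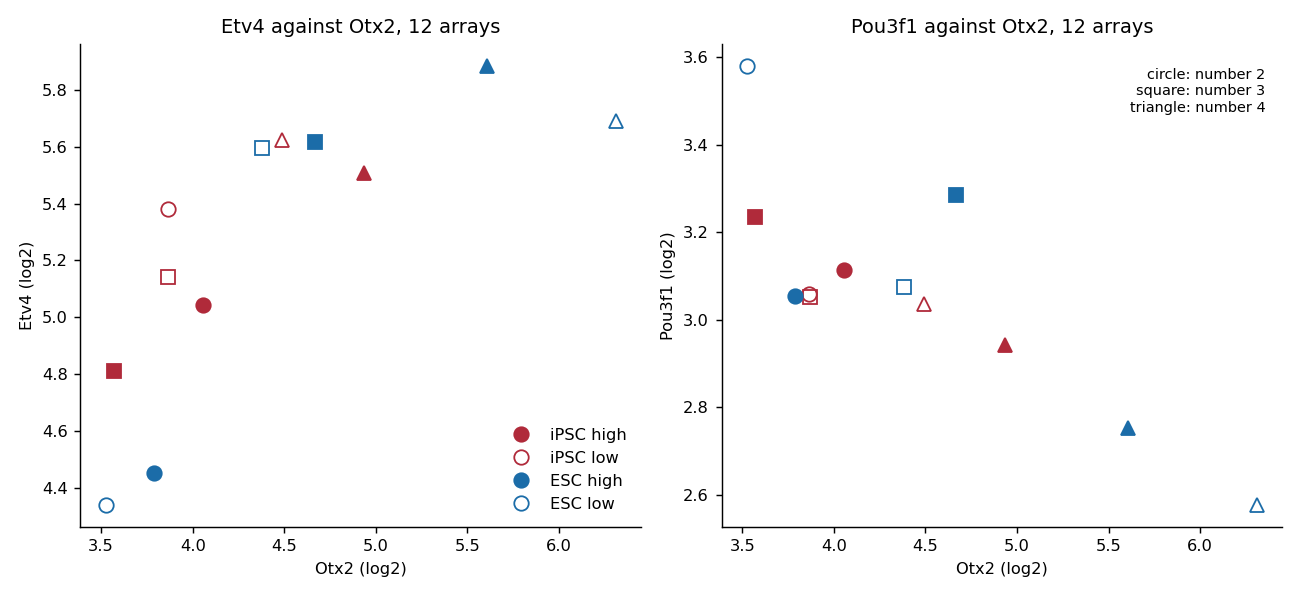
Log2 level of Etv4 (left) and of Pou3f1 (right) against that of Otx2 on the 12 arrays. Filled symbols are high and open symbols low fractions, red iPSC and blue ESC, and the shape gives the number. Etv4 is higher and Pou3f1 lower on arrays with more Otx2, with the ESC arrays of number 4 at the right.

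Likeness was sought among 19557 probe sets with a gene symbol, with predicted genes, clone names, microRNA and small nucleolar RNA genes left out. The probe sets most like Otx2 over the 12 arrays were Anapc7 (r = 0.950), Preb (0.932) and Fgd1 (0.904). Those most like Etv4 were Rarg (0.963), Zbtb7b (0.954) and Dock6 (0.950). These are the highest of many correlations over few arrays and are given as a description.

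Of 13 other formative and primed genes measured, 0 passed between the fractions averaged over both cell types (3 at an unadjusted p under 0.05, limma, where 15.6% of all probe sets were). Between the cell types 4 were at an unadjusted p under 0.05 (limma), against 14.7% of all probe sets. Past the threshold was 1 gene, lower in iPSC than in ESC, against 2.87% of all probe sets. That gene was Dnmt3a, a DNA methyltransferase of the post-implantation epiblast, with 6.24, 6.49 and 6.47 in iPSC high and 5.99, 6.29 and 6.49 in iPSC low, against 6.97, 6.94 and 6.92 in ESC high and 6.55, 6.90 and 6.98 in ESC low. The difference, iPSC minus ESC averaged over the fractions, was -0.55 ± 0.10 (adjusted p = 0.0120, limma). With the high and low array of equal number averaged, which leaves 3 values per cell type, it no longer passed (adjusted p = 0.0968, limma). The call was also lost without both arrays of iPSC number 2 (0.0588), ESC number 3 (0.0606) or ESC number 4 (0.0632). Tcf15, a helix-loop-helix factor of cells about to leave the naive state, had the lowest p between the fractions, at -0.54 ± 0.14 in high minus low (adjusted p = 0.0718, limma; 0.0455 with each array centred on its median, and 0.0202 without ESC low number 4). Its adjusted p reached 0.159 with another array left out and 0.229 with a numbered pair left out (limma). With the replicate block Tcf15 did not pass. Fgf15, a secreted growth factor, was at 0.35 ± 0.14 (adjusted p = 0.251, limma) and the cadherin Cdh2 at -0.44 ± 0.19 (adjusted p = 0.283, limma; 0.0459 with the replicate block). Between the cell types Tcf15 was at 0.49 ± 0.14 (adjusted p = 0.0925, limma) and the zinc-finger factor Zic5 at 0.29 ± 0.09 (adjusted p = 0.151, limma) in iPSC minus ESC.

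In the FGF and ERK pathway, 0 of 14 genes passed between the fractions (2 at an unadjusted p under 0.05, limma, where 15.6% of all probe sets were). Between the cell types 6 were at an unadjusted p under 0.05 (limma), against 14.7% of all probe sets. Past the threshold was 1 gene, higher in iPSC than in ESC, against 2.87% of all probe sets. Spry2, an inhibitor of the pathway that the pathway itself induces, had 7.38, 7.32 and 7.35 in iPSC high and 7.53, 7.25 and 7.46 in iPSC low, against 7.08, 7.04 and 7.04 in ESC high and 7.06, 6.83 and 6.96 in ESC low. The difference was 0.38 ± 0.07 (adjusted p = 0.0111, limma; 0.106 with equal numbers averaged). That call was lost without both arrays of iPSC number 2 (0.0705), iPSC number 4 (0.0690), ESC number 3 (0.0599) or ESC number 4 (0.0545). Of the target genes of ERK, Egr1 was at 1.19 ± 0.31 (adjusted p = 0.0596, limma). Il17rd, an inhibitor of FGF signalling, was at 0.29 ± 0.08 (adjusted p = 0.0738, limma). Spry4, chosen after its values were seen, was at 0.72 ± 0.21 (adjusted p = 0.0957, limma; 0.0455 with the replicate block, 0.0392 without ESC high number 4, and 0.304 with equal numbers averaged). In this comparison the block shared the effect of each number between the cell types, where residuals of equal numbers correlated at -0.09 to 0.13. Between the fractions, the phosphatases of MAP kinases Dusp6 and Dusp5 were at 0.37 ± 0.11 (adjusted p = 0.103, limma) and 0.30 ± 0.12 (adjusted p = 0.241, limma) in high minus low, and both passed with the replicate block (0.0437 and 0.0423). The receptor Fgfr1 was at -0.18 ± 0.10 (adjusted p = 0.403, limma).

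Of 13 naive state genes, 0 passed between the fractions (1 at an unadjusted p under 0.05, limma, where 15.6% of all probe sets were). Between the cell types 5 were at an unadjusted p under 0.05 (limma), against 14.7% of all probe sets. Past the threshold, 1 was higher and 1 lower in iPSC than in ESC, against 2.87% of all probe sets in either direction. Dppa3, a maternal factor that protects imprints, had 4.24, 4.69 and 3.72 in iPSC high and 4.08, 3.79 and 3.63 in iPSC low, against 5.24, 5.91 and 5.20 in ESC high and 4.90, 5.52 and 4.58 in ESC low. It was at -1.20 ± 0.20 (adjusted p = 0.0069, limma; 0.0782 with equal numbers averaged), and passed without any 1 array or pair. The Krüppel-like factor Klf2 was higher in iPSC by 0.39 ± 0.09 (adjusted p = 0.0369, limma; 0.190 with equal numbers averaged). The Klf2 call was also lost on leaving out any of 10 of the 12 arrays, where its adjusted p reached 0.101. The orphan receptor Esrrb was at -0.22 ± 0.06 (adjusted p = 0.0957, limma). Between the fractions the lowest p-values of naive genes were those of Nr0b1 at 0.24 ± 0.10 (adjusted p = 0.279, limma), Dppa3 at 0.42 ± 0.20 (0.338) and Tcl1 at 0.16 ± 0.09 (0.447) in high minus low.

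Of 21 measured family relatives of the members, 0 passed in any of the comparisons of fractions or cell types (2 between the fractions and 7 between the cell types at an unadjusted p under 0.05, limma, averaged over the other factor, where 15.6% and 14.7% of all probe sets were). Those with the lowest p between the fractions were Fgf8 at 0.29 ± 0.10 (adjusted p = 0.174, limma), Cldn3 at 0.20 ± 0.09 (0.291) and Sox1 at -0.27 ± 0.14 (0.398) in high minus low. Between the cell types they were Cldn4 at -0.36 ± 0.10 (adjusted p = 0.0951, limma), Zic5 at 0.29 ± 0.09 (0.151) and Cldn3 at -0.25 ± 0.09 (0.178) in iPSC minus ESC.

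Some genes of these lists also differed between the numbered pairs of ESC by the F test, which 1.2% of all probe sets passed. Among the other formative and primed genes this was 1 of 13, Lef1, a Wnt effector whose levels were 7.58, 5.41 and 6.52 in ESC high and 7.36, 5.62 and 6.34 in ESC low (adjusted p = 0.0031, limma). Lef1 also passed in iPSC, where 3 of all probe sets did. It had 6.49, 6.55 and 5.00 in iPSC high and 6.28, 6.42 and 4.78 in iPSC low (adjusted p = 0.0353, limma), a call lost on leaving out any of 10 of the 12 arrays. In the FGF and ERK pathway it was 2 of 14. The receptor Fgfr2, at 4.37, 2.35 and 2.85 in ESC high and 4.55, 2.85 and 3.34 in ESC low (adjusted p = 0.0032, limma), was highest in number 2, where Etv4 was lowest. Spry4, at 5.18, 5.57 and 6.29 in ESC high and 4.89, 5.72 and 5.90 in ESC low (adjusted p = 0.0420, limma), ran in the same order as Otx2 and Etv4. Of the family relatives it was 2 of 21, Etv1 (adjusted p = 0.0124, limma), whose levels of 5.45, 6.47 and 6.88 in ESC high and 5.04, 6.12 and 6.62 in ESC low had the order of Etv4, and Cldn7 (adjusted p = 0.0420, limma), which at 2.72, 3.65 and 2.54 in ESC high and 2.36, 3.52 and 2.70 in ESC low was highest in number 3, as Cldn6 was. Each of these ESC calls was lost without some array. For Lef1 (adjusted p = 0.0517, limma) and Fgfr2 (0.0698) this was ESC high number 2 alone, for Etv1 any of 4 of the 12 arrays (up to 0.126), and for Spry4 (up to 0.253) and Cldn7 (up to 0.215) any of 10. Of the 13 naive and 5 core pluripotency genes 0 passed, with 3 and 0 at an unadjusted p under 0.05 (limma), against 14.3% of all probe sets.

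Markers of other cell types were compared across the same arrays. None of the 8 primitive streak, 7 neural, 7 extraembryonic endoderm, 6 trophoblast, 11 fibroblast and 6 blood markers measured passed between fractions or cell types. At an unadjusted p under 0.05 (limma) were 4 of them between the fractions and 6 between the cell types, averaged over the other factor, against 15.6% and 14.7% of all probe sets. Their list means spanned 2.64 to 3.59 over the 12 arrays. In ESC 2 of these genes differed between the numbered pairs, against 1.2% of all probe sets. Eomes, a streak and trophoblast factor, had 4.25, 4.90 and 5.36 in ESC high and 4.59, 4.74 and 5.53 in ESC low (adjusted p = 0.0292, limma). Tfap2a, a trophoblast and surface ectoderm factor, had 3.22, 3.35 and 4.52 in ESC high and 3.47, 3.80 and 4.52 in ESC low (adjusted p = 0.0205, limma). Both calls were lost without some array, for Eomes any of 10 (adjusted p up to 0.172, limma) and for Tfap2a any of 6 (up to 0.177). Both genes were highest in number 4 of ESC, as Otx2 and Etv4 were. The mean of the 6 trophoblast markers, Tfap2a among them, was 3.45, 3.31 and 3.59 in ESC high and 3.40, 3.44 and 3.53 in ESC low. Without Tfap2a the mean of the other 5 was 3.49, 3.30 and 3.41 in ESC high and 3.39, 3.37 and 3.33 in ESC low, where number 4 was not the highest. The mean of the 8 streak markers was 3.06, 2.998 and 3.17 in ESC high and 3.18, 3.28 and 3.09 in ESC low. Their part in the results for Otx2 and Etv4 was not tested.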

How the data were processed

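Total RNA of sorted cells was labelled with biotin and hybridised to Affymetrix arrays, 12 in all. The authors deposited log2 levels, 1 column per array with 25206 probe sets. The submitters' processing notes name RMA, affy 1.36.1 and R 2.15.1. Neither the chip definition nor the genome build is given in the sources used here. Of the probe sets, 23185 had 1 gene symbol, 2021 none and 0 several, and all 8 members were found. Probe sets of close relatives, such as claudins, can share signal. Some genes of the lists were not analysed here. The number of arrays limits the precision.

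limma 3.58.1 in R 4.3.3 was fitted on all 12 arrays with 1 mean per group, and p-values were adjusted by Benjamini-Hochberg over 25206 probe sets, at a threshold of 0.05. Alternatives were array centring, a variance trend, robust variances, dim probe sets left out, only the groups compared, a replicate block, equal numbers averaged, and arrays left out. The residuals of equal-numbered high and low arrays of a cell type correlated at 0.11 to 0.34 in 6 of 6 pairs, and those of other numbers at -0.23 to 0.00. Residuals of a group cancel out, so positive values for equal numbers force negative ones for other numbers. Arrays of other numbers and the other cell type correlated at -0.16 to 0.17. The iPSC pairs numbered 2 (0.107) and 3 (0.127) lay inside that range. The numbers were taken as pairs within a cell type, which the labels do not state and which is less clear in iPSC. Equal numbers across cell types correlated at -0.09 to 0.13 and were not taken as pairs for high minus low. For iPSC minus ESC, however, the replicate block gave arrays of equal number a shared effect in both cell types. The members and lists were chosen with earlier results of these data known. All members are named in each comparison. Of a list, genes past the threshold are named and, where fewer than 3 passed, up to 3 with the lowest p, except that markers of other cell types are named only where they differed between numbered pairs. The 3 most correlated probe sets are named for members with the widest range. Fits were tested on simulated data. Python 3.11.15 with matplotlib 3.10.9 drew the figures.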

Additional observations from a re-analysis of the deposited data

Results flagged for a closer look

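The high minus low differences of Etv4, the FGF-induced ETS factor, had opposite signs in the numbered pairs of the 2 cell types. How many of all probe sets did so was not counted. High was below low in 3 of 3 numbered pairs of iPSC, at -0.34, -0.33 and -0.12, and above low in 3 of 3 of ESC, at 0.11, 0.02 and 0.19 (log2 difference, numbers 2, 3 and 4). The difference between the effects was -0.37 ± 0.54 (SE; adjusted p = 0.9998, limma) and did not pass the test, with the replicate block either (adjusted p = 0.793, limma).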

How the results depend on the processing

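The count of members past the threshold was 0 in each of the 7 comparisons under every alternative run for it, 166 combinations of comparison and setting in all, which included each array and each numbered pair of arrays left out, the replicate block, median centring and a variance trend. The replicate block changed no call of a member. Differences changed sign in 37 of the 56 member results when 1 array or pair was left out, and none of these was past the threshold. For high minus low in ESC the ranges were Otx2 -0.66 to 0.73, Pou3f1 -0.30 to 0.21, Sox3 -0.11 to 0.33, Zic2 -0.19 to 0.059, Etv4 -0.33 to 0.54 and Cldn6 -0.23 to 0.18. For high minus low in iPSC the ranges were Otx2 -0.26 to 0.42, Fgf5 -0.036 to 0.27, Pou3f1 -0.020 to 0.12 and Sox3 -0.13 to 0.042. For the average over both cell types the ranges were Otx2 -0.27 to 0.42, Pou3f1 -0.12 to 0.13, Sox3 -0.074 to 0.15 and Etv4 -0.29 to 0.14. For iPSC effect minus ESC effect the ranges were Otx2 -0.62 to 0.77, Fgf5 -0.28 to 0.026, Pou3f1 -0.16 to 0.34, Sox3 -0.37 to 0.073, Zic2 -0.20 to 0.063, Etv4 -0.80 to 0.065, Cldn6 -0.40 to 0.011 and Foxd3 -0.36 to 0.15. For iPSC minus ESC in the high fraction the ranges were Pou3f1 -0.073 to 0.19, Sox3 -0.22 to 0.16, Etv4 -0.63 to 0.087 and Foxd3 -0.25 to 0.26. For iPSC minus ESC in the low fraction the ranges were Otx2 -1.27 to 0.12, Fgf5 -0.17 to 0.083, Pou3f1 -0.28 to 0.22, Etv4 -0.26 to 0.41 and Foxd3 -0.083 to 0.25. For iPSC minus ESC averaged over the fractions the ranges were Otx2 -1.11 to 0.041, Fgf5 -0.24 to 0.015, Pou3f1 -0.18 to 0.15, Sox3 -0.061 to 0.13, Etv4 -0.45 to 0.25 and Foxd3 -0.15 to 0.21. With each array centred on its median, the sign turned for Pou3f1 in iPSC (-0.0099) and in the average over cell types (-0.039), for Otx2 (-0.0088) and Sox3 (-0.028) in the average, and for Sox3 in iPSC minus ESC in the high fraction (-0.030).

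Counts over all probe sets moved more. For high minus low in iPSC 236 passed with the replicate block, against 138 without. For high minus low in ESC 177 passed with the replicate block and 39 with only the groups compared, against 90. For iPSC minus ESC averaged over the fractions 63 passed with equal numbers averaged, against 724. In the high fraction 141 passed with a variance trend, 71 with dim probe sets left out and 1 with only the groups compared, against 47, and in the low fraction 209 with a variance trend and 3 with only the groups compared, against 100. The test of the difference called 1 with the replicate block, against 0. Leaving out arrays or pairs gave 0 to 208 in iPSC, 0 to 111 in ESC, 251 to 695 in their average, 1 to 48 in the high fraction, 6 to 74 in the low fraction and 270 to 700 averaged over the fractions.

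For the differences between numbered pairs, the members called numbered 0 to 1 over both cell types, 0 to 2 in ESC and 0 in iPSC with 1 array left out. A variance trend also called Zic2 over both cell types (adjusted p = 0.0316, limma). Over all probe sets 820 passed over both cell types with a variance trend and 238 with dim probe sets left out, against 131, while 909 passed in ESC and 93 in iPSC with the trend, against 302 and 3. Leaving out 1 array gave 8 to 31 over both cell types, 5 to 197 in ESC and 0 to 2 in iPSC. An array whose partner was left out was assumed to vary like the others. Why these counts moved was not tested.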
